A study of Mus musculus with 32 samples.

Results

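The 12 h component of RNA abundance in gastrocnemius, the calf muscle, in which fast fibres prevail, was measured as the difference between the light transitions (Zeitgeber times ZT0, lights on, and ZT12, lights off) and the mid-phases of the light and dark periods (ZT6 and ZT18). All 32 libraries of the series entered, 16 from transitions and 16 from mid-phases, each set with 8 control and 8 mutant mice, assigned by time of harvest. The mutants were Sf1-Cre; Sirt1loxP/loxP mice, in which Cre under the Sf1 promoter directs loss of the deacetylase SIRT1 to SF1 neurons of the ventromedial hypothalamus. The other mice are labelled Control, and the series description gives them as Sirt1loxP/loxP without Cre. All mice were 10 weeks old, of mixed genetic background and carried floxed Sirt1 alleles, with 4 mice for each genotype and time. No group had Cre alone, so Cre and the deletion cannot be told apart. Sf1 is also active in adrenal, pituitary and gonad, and the deletion itself was not checked here, since muscle is not its target.

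RNA in many tissues follows the 24 h cycle set by the circadian clock, a feedback loop in which CLOCK or NPAS2 pairs with BMAL1 to drive the Per and Cry repressors. A smaller set of genes is known to peak at both dawn and dusk or in both mid-phases. In liver such 12 h rhythms have been described for genes of the unfolded protein response, the pathway that adjusts protein folding in the endoplasmic reticulum (ER), and for heat shock genes, which encode cytosolic chaperones under heat shock factor 1. With samples every 6 h only one phase of a 12 h rhythm can be seen, namely the one with its extremes at the transitions and mid-phases. A 24 h rhythm of irregular shape also adds to this difference.

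This comparison coincides with the layout of the libraries. Per the labels, the 8 index sequences used at ZT0 were the same 8 used at ZT12, the 8 used at ZT6 were the same 8 used at ZT18, and 0 were shared between a transition and a mid-phase. The labels place the samples in 4 pools of 8 and do not say which sample was in which pool. Effects of the index set, and of any pool built on it, cannot be told apart from the difference between transitions and mid-phases in any result below. Absolute depth is unknown. Relative depth, estimated from the step between neighbouring low FPKM values, was 1.04 ± 0.169 at transitions and 0.985 ± 0.123 at mid-phases (SD, n = 16 each, 2-sided permutation p = 0.347). Acta1, the actin of skeletal muscle and among the most abundant RNAs, is listed at 0 in 8 transition and 4 mid-phase libraries, so an exact 0 of an abundant gene was treated as missing. The muscle identity of the samples was plain in every library, with the summed level of 19 fast fibre genes between 94040 and 181380 FPKM (fragments per kilobase of transcript, scaled to the mapped total).

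Few genes differed between transitions and mid-phases after correction over all genes. Of 11971 genes with a value, 8 passed in both genotypes together (0.0668%), 2 of them higher and 6 lower at transitions (limma on log2(FPKM + 1), Benjamini-Hochberg adjusted p under 0.05). The unadjusted p was under 0.05 for 1683 genes (14.1%), which were 818 higher (6.83%) and 865 lower (7.23%). For comparison, the 24 h component, made of ZT0 against ZT12 and ZT6 against ZT18, passed for 1371 genes (11.5%). Taken singly, ZT0 minus ZT12 passed for 685 genes and ZT6 minus ZT18 for 860. The median difference over all genes was 0.01 and the median standard error 0.0617 on the log2(FPKM + 1) scale. That scale understates changes at low FPKM.

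In 34.8% of all genes both transition means, averaged over genotypes, lay on the same side of both mid-phase means. Among the 1683 genes with an unadjusted p under 0.05 this share was 76.5%, with 586 genes higher at both transitions and 702 lower. The other 395 had neither pattern. These 1683 genes were selected by the same difference, which favours such patterns, so the larger share is no evidence of a repeated peak. The pattern was the same in each genotype for 460 of them. Of the 8 genes that passed, 2 were higher at both transitions, 5 were lower at both, and 1, the clock gene Npas2, had neither pattern. A 24 h component also passed for 4 of the 8.

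The largest differences among the genes that fell at transitions were in a pair of genes of inflammation and immunity. Iigp1 encodes an interferon-inducible GTPase of resistance to intracellular pathogens. In controls it was at 15.5 ± 4.44 FPKM at ZT0 and 24.6 ± 10.9 at ZT12, against 50.3 ± 16.5 at ZT6 and 45.5 ± 16.5 at ZT18 (SD, n = 4 each). In mutants it was at 30.1 ± 7.80 and 20.1 ± 12.0 FPKM at the transitions and at 36.6 ± 11.1 and 41.0 ± 10.3 FPKM at the mid-phases. All 16 mid-phase libraries (29.7 to 70.5 FPKM) lay above the transition median of 21.4 FPKM, and 3 transition libraries, of a range from 12.2 to 41.3 FPKM, lay above the mid-phase median. The log2 difference was -0.97 over both genotypes (SE 0.157, adjusted p = 0.00756), -1.25 in controls (adjusted p = 0.0318) and -0.69 in mutants (adjusted p = 0.110). Iigp1 had no 24 h component (adjusted p = 0.992). The list of 23 interferon-response genes as a whole did not follow it: 14 were higher and 9 lower, with 1 higher and 0 lower at an unadjusted p under 0.05.

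Saa3, on chromosome 7 (46711997 to 46715676, mm10), encodes an acute-phase serum amyloid A protein made outside the liver, and its level was low throughout. In control libraries it was listed at 0, 0, 0.273 and 0.343 FPKM at ZT0 and at 0.489, 1.73, 0.446 and 0.662 FPKM at ZT12. The control mid-phase libraries lay between 0.674 and 1.76 FPKM. In mutants it was listed at 0.786, 0, 0 and 0 FPKM at ZT0 and at 0.397 to 1.20 FPKM at ZT12, and the mid-phase libraries lay between 0.820 and 1.67 FPKM. All 16 mid-phase libraries were above the transition median of 0.422 FPKM, and only 1 transition library was above the mid-phase median of 1.23 FPKM. The log2 difference was -0.63 over both genotypes (SE 0.0977, adjusted p = 0.00679), -0.62 in controls (adjusted p = 0.0732) and -0.64 in mutants (adjusted p = 0.0851). In these values an exact 0 can be a failed estimate. With the 5 zeros taken as missing the difference was -0.43 and did not pass (adjusted p = 0.124), so the call for Saa3 rests on libraries that list it at 0.

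**Figure D1:**
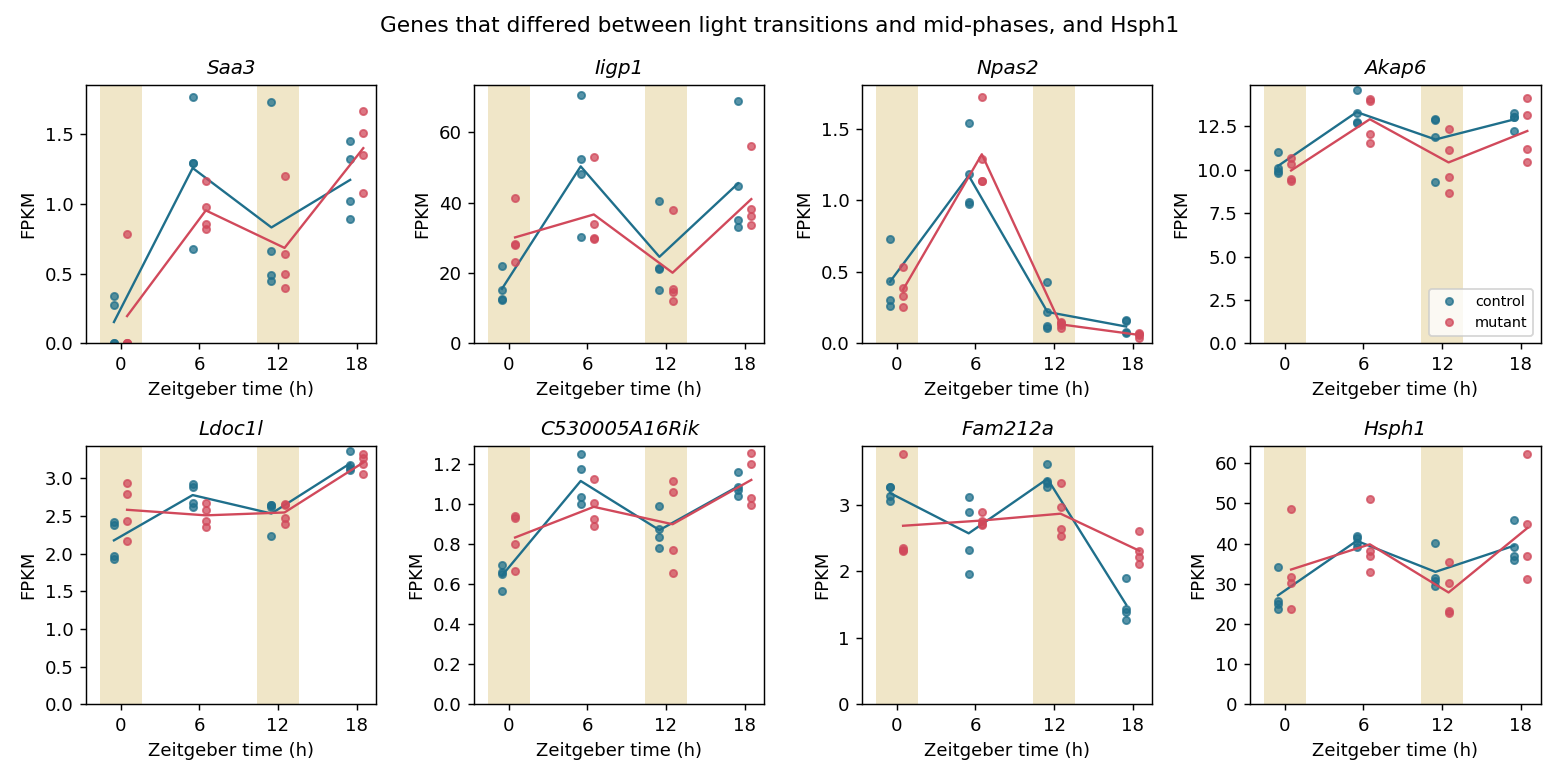
FPKM (vertical axes, from 0) against Zeitgeber time in hours for the 7 single-symbol genes that passed and for the chaperone gene Hsph1, which did not; each point is 1 library, lines join the means of 4 mice, and shaded bands mark the transitions. Iigp1, Akap6 and C530005A16Rik dip at both bands in both genotypes, Npas2 peaks at ZT6 alone, and Fam212a is lowest at ZT18 in controls.

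The other genes that fell were a scaffold, a clock gene and a pair of little-studied genes. Akap6 (chromosome 12, 52699382 to 53151015) encodes a muscle scaffold that holds protein kinase A at the nuclear envelope. It ranged from 8.65 to 12.9 FPKM at transitions (median 10.2) and from 10.4 to 14.6 FPKM at mid-phases (median 13.1), and 0 of the 16 transition libraries exceeded the mid-phase median. Its log2 difference was -0.26 (SE 0.0504, adjusted p = 0.0363), with -0.24 in controls and -0.28 in mutants and no 24 h component (adjusted p = 0.503). C530005A16Rik (chromosome 4, 116557726 to 116600266) was at 0.566 to 1.12 FPKM at transitions and 0.890 to 1.26 FPKM at mid-phases. In controls its transition libraries (0.566 to 0.990 FPKM) all lay below its mid-phase libraries (highest 1.25 FPKM). Its difference was -0.20 (SE 0.0399, adjusted p = 0.0433).

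Ldoc1l (chromosome 15, 84553397 to 84557823), a gene derived from a retrotransposon, was lowest at ZT0 in controls (2.18 ± 0.262 FPKM) and highest at ZT18 in both genotypes (controls 3.20 ± 0.114 FPKM, mutants 3.21 ± 0.112 FPKM; SD, n = 4 each). In mutants the ZT6 mean (2.51 ± 0.143 FPKM) was no higher than the transition means. The log2 difference was -0.18 (SE 0.0343, adjusted p = 0.0318), and it also had a 24 h component (adjusted p = 0.00766). Npas2 encodes a partner of BMAL1 and was at 1.17 ± 0.263 FPKM at ZT6 in controls and 1.32 ± 0.276 in mutants. At the other times its group means were between 0.0595 and 0.431 FPKM. The low value at ZT18 was below both transitions, so its difference of -0.29 (SE 0.0534, adjusted p = 0.0318) describes a narrow daily peak and not a repeated one. With a pseudocount of 0.1 the Npas2 difference was no longer past the threshold (adjusted p = 0.208).

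Fam212a was the only gene with a single symbol that rose at transitions in both genotypes together, and its difference came mainly from controls. Fam212a (chromosome 9, 107984223 to 107985916) encodes an inhibitor of the PAK4 kinase, named Inka1 in current annotations. In control libraries it was at 3.26, 3.05, 3.13 and 3.26 FPKM at ZT0 and at 3.61, 3.33, 3.26 and 3.36 FPKM at ZT12, against 2.32, 1.96, 2.89 and 3.11 FPKM at ZT6 and 1.91, 1.39, 1.43 and 1.26 FPKM at ZT18. Of the control mid-phase libraries, 1 at ZT6 reached into the range of the transitions. In mutants the transition range (2.31 to 3.76 FPKM) covered most of the mid-phase range (2.11 to 2.88 FPKM). The log2 difference was 0.31 over both genotypes (SE 0.0523, adjusted p = 0.0108), 0.53 in controls (adjusted p = 0.00119) and 0.09 in mutants (adjusted p = 0.520). The difference between genotypes did not pass (adjusted p = 0.0748).

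The other entry that rose holds several genes under one identifier, the long noncoding RNA Lincppara and the let-7 microRNA hosts Mirlet7b and Mirlet7c-2, whose reads cannot be told apart here. It was at 0.700 to 1.84 FPKM at transitions (median 1.12) and 0.362 to 1.06 FPKM at mid-phases (median 0.677). The log2 difference was 0.35 (SE 0.0695, adjusted p = 0.0454), 0.27 in controls and 0.42 in mutants. Among genes that did not pass, Adprm, an ADP-ribose phosphatase gene, was at 4.64 to 6.60 FPKM at transitions and 4.00 to 5.58 FPKM at mid-phases. All 16 transition libraries lay above the mid-phase median of 4.61 FPKM (difference 0.20 in each genotype, adjusted p = 0.0546). The kinase gene Plk2 (0.33) and, in the opposite direction, the cytokine signalling inhibitor gene Socs2 (-0.43) and the kinesin gene Kif5b (-0.22) had the same adjusted p of 0.0546.

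Saa3, Iigp1 and Fam212a passed when any 1 of the 32 libraries was left out. Npas2 passed in 23 of these 32 fits, Ldoc1l in 19, Akap6 in 16 and C530005A16Rik in 14. With a minimum mean of 5 FPKM, 0 genes were called higher and 1, Iigp1, lower.

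Most heat shock and cytosolic chaperone genes had lower means at the transitions, and none of them passed singly. Of 35 tested, 29 were lower, with a median log2 difference of -0.09 against 0.01 for all genes. At an unadjusted p under 0.05, 14 were lower, 40% of the list where 7.23% of all genes were lower, and 0 were higher. In controls 33 were lower (median -0.10, against -0.02 for all genes, of which 42.4% were higher), but only 2 were lower and 0 higher at an unadjusted p under 0.05, where 9.24% of all genes were lower. In mutants 23 were lower (median -0.11), with 14 lower and 2 higher at that level, where 7.23% of all genes were lower. With libraries scaled by quantiles the controls had 26 lower and 9 higher (median -0.04) and the mutants 26 lower (median -0.17), and 12 rather than 14 genes were lower at an unadjusted p under 0.05 over both.

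Promoter sequences show which of these genes carry the binding letters of heat shock factor 1 next to their start. The window of 250 bases before to 50 after the RefSeq start was read for 28 of the 35 genes (build GRCm38.p6, the same assembly as mm10). A three-unit heat shock element, GAA units in alternating orientation with 2 bases between them, stood in 3 of the 28 windows (10.7%) and in 0.529% of the 27025 promoters listed. It is shown in capitals for those 3 genes, 5′ to 3′ on the strand of the gene.
Hsph1: TTCtgGAAagTTC
Chordc1: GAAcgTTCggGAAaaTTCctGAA
Hspe1: TTCtaGAAccTTCcgGAA

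The Hsph1 element lies at bases 37 to 49 after the start (chr5:149636288-149636300, minus strand). The Chordc1 element has 5 units and spans the start (chr9:18292263-18292285, plus strand). The Hspe1 element has 4 units and lies 72 to 89 bases before the start (chr1:55088059-55088076, plus strand), in the promoter that Hspe1 shares with Hspd1. The shorter pairs, searched on both strands and in part inside that element, were TTCNNGAA, found in 17.9% of the list and 8.40% of all promoters, and GAANNTTC, found in 32.1% and 7.95%. The 250 bases before the Hsph1 start (chr5:149636337-149636586, minus strand) hold TTCNNGAA once, in capitals, 33 bases before the start.
Hsph1 promoter: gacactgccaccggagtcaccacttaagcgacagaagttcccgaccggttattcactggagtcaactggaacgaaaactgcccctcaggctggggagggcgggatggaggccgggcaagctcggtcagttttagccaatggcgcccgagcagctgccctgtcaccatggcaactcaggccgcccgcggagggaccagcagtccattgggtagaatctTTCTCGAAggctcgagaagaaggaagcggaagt

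Hsph1 encodes a nucleotide exchange factor of HSP70 and had the largest difference in the list. It was at 27.1 ± 4.84 FPKM at ZT0 and 33.0 ± 4.91 at ZT12 in controls, against 40.7 ± 1.27 at ZT6 and 39.5 ± 4.48 at ZT18 (SD, n = 4 each). In mutants it was at 33.5 ± 10.7 and 27.8 ± 6.05 FPKM at transitions and at 39.8 ± 7.86 and 43.9 ± 13.6 FPKM at mid-phases. All 16 mid-phase libraries (31.3 to 62.4 FPKM) lay above the transition median of 30.2 FPKM, while the transition libraries reached from 22.7 to 48.7 FPKM. The log2 difference was -0.42 in controls, -0.44 in mutants and -0.43 together (SE 0.0947, adjusted p = 0.0676), with no 24 h component (adjusted p = 0.989). Over the alternatives other than leaving out 1 library its adjusted p ran from 0.0464, without library 3 of the mutant ZT0 and ZT12 groups, to 0.168, without libraries 2 and 3 of the mutant ZT0 group.

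Hspa4l, a relative of Hsph1, ranged from 2.19 to 4.74 FPKM at transitions (median 3.27) and from 3.35 to 6.53 FPKM at mid-phases (median 4.11; difference -0.31, adjusted p = 0.137). Ahsa1, the activator of the HSP90 ATPase, had transition libraries between 63.7 and 108 FPKM and mid-phase libraries between 89.7 and 140 FPKM (difference -0.21, adjusted p = 0.145). For both genes all 16 mid-phase libraries exceeded the transition median. Of the genes with an element, the HSP90 co-chaperone gene Chordc1 had a difference of -0.20 (unadjusted p = 0.00579). The mitochondrial chaperonin genes that share a promoter differed from each other: Hspd1 was at -0.21 (unadjusted p = 0.00878) and Hspe1 at -0.02, with -0.19 in controls and 0.15 in mutants.

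The HSP90 genes Hsp90aa1 (-0.23) and Hsp90ab1 (-0.18), the HSP70 family genes Hspa4 (-0.15) and Hspa9 (-0.16), and the cofactor genes Stip1 (-0.26), Dnajb1 (-0.20) and Fkbp4 (-0.17) were all lower at an unadjusted p under 0.05. So were Cct3 (-0.11) and Cct6a (-0.13), subunits of the chaperonin ring that folds actin and tubulin. The small heat shock protein gene Cryab was at -0.46 in controls and 0.32 in mutants and Hspb6 at -0.18 and 0.24, and the difference between genotypes did not pass for either (adjusted p = 0.117 and 0.261). Hsf1 itself, which encodes the factor, was at -0.08 in controls and 0.16 in mutants.

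**Figure D2:**
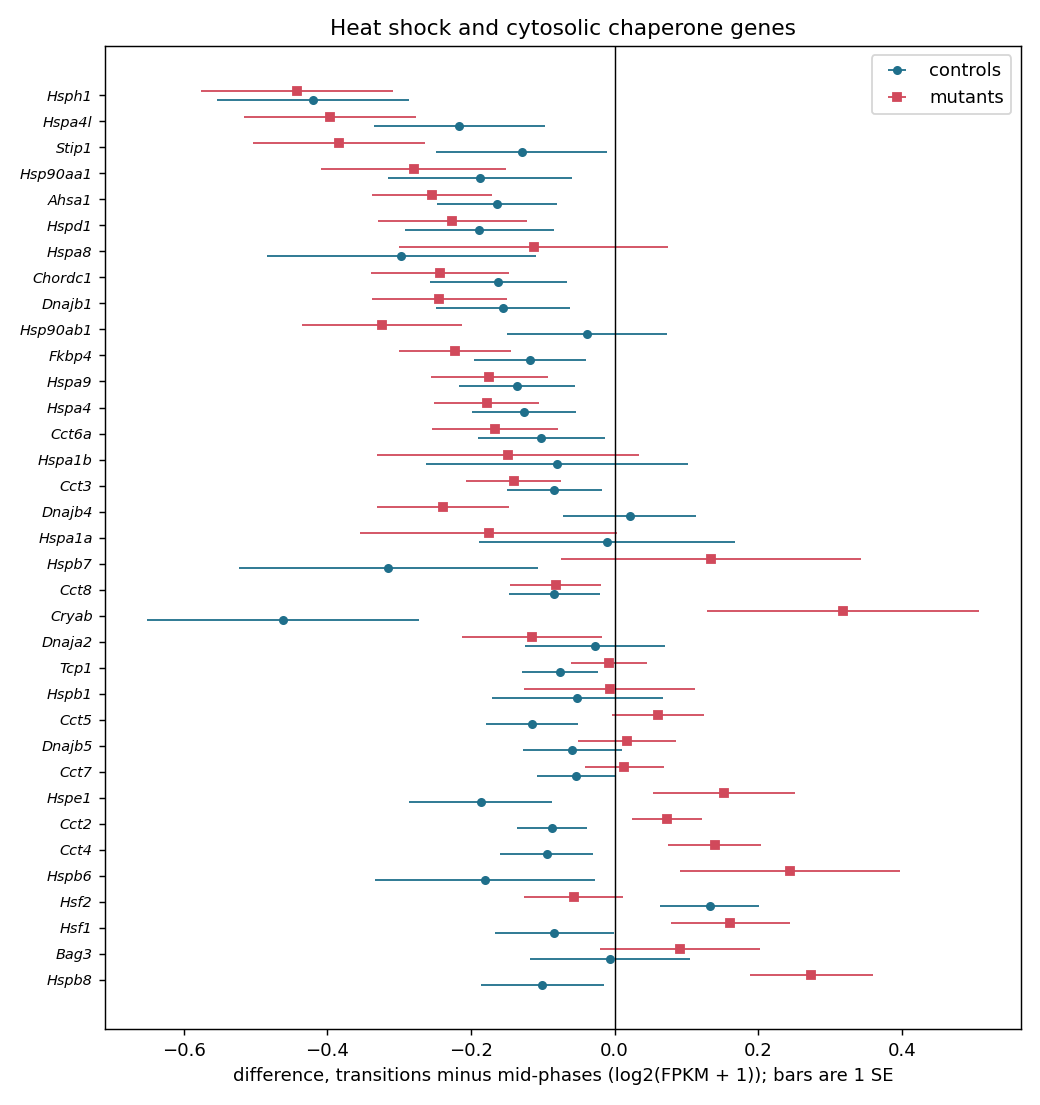
Difference between transitions and mid-phases on the log2(FPKM + 1) scale (horizontal axis, bars 1 SE) for 35 heat shock and cytosolic chaperone genes in controls (circles) and mutants (squares), ordered by the mean of both. The upper part of the list, from Hsph1 to Cct3, lies below 0 in both genotypes, and from Cct5 downward all genes have opposite signs in the genotypes.

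Of 35 genes of ER folding and the unfolded protein response, 23 were higher at transitions with a median of 0.03. At an unadjusted p under 0.05, 6 were higher and 1 lower, 20% of the list where 14.1% of all genes were at that level, and none passed singly. Trib3, a pseudokinase induced by ER and amino acid stress, had the smallest p. It was at 0.747 to 1.77 FPKM at transitions (median 1.19) and 0.478 to 1.31 FPKM at mid-phases (median 0.873), and 15 of 16 transition libraries lay above the mid-phase median (difference 0.24, adjusted p = 0.104). Xbp1, which encodes the transcription factor activated by splicing in this response, had a difference of 0.11 (adjusted p = 0.288) and Ddit3, its pro-apoptotic factor, 0.18 (adjusted p = 0.216). Ddit3 also had a 24 h component (adjusted p = 0.000369) and was highest at ZT0 in both genotypes. In controls its ZT12 mean (15.5 FPKM) was no higher than its means at ZT6 (17.9 FPKM) and ZT18 (15.6 FPKM). Of 31 genes of vesicle traffic between ER and Golgi, 16 were higher and 15 lower over both genotypes (median 0.00), with opposite medians in the genotypes. In controls 22 were lower (median -0.05, against -0.02 for all genes). At an unadjusted p under 0.05, 0 were higher and 4 lower, where 9.24% of all genes were lower. In mutants 20 were higher (median 0.04, against 0.03 for all genes, of which 57.3% were higher). At that level 12 were higher and 2 lower, where 14.3% of all genes were higher. With quantile scaling the medians were -0.004 in controls and 0.02 in mutants.

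Genes of cytosolic ribosomes had higher means at transitions mainly in mutants, and none passed singly. Of 62 cytosolic ribosomal protein genes, 53 had higher means over both genotypes (median 0.10), with 17 higher and 0 lower at an unadjusted p under 0.05. In mutants the median was 0.20, with 26 higher and 0 lower at an unadjusted p under 0.05, where 14.3% of all genes were higher. In controls it was 0.02, with 0 higher and 2 lower, and went from -0.01 with covariates to 0.08 with quantile scaling. Rps21, of the small subunit, was at 202 to 393 FPKM in control transitions and 232 to 301 FPKM in control mid-phases. In mutants it was at 262 to 640 FPKM against 224 to 315 FPKM, and all 8 mutant transition libraries lay above the mid-phase median (difference 0.61, adjusted p = 0.0851). Genes of ribosome biogenesis, which act in the nucleolus, went the other way, with 24 of 30 lower (median -0.06) and 4 lower at an unadjusted p under 0.05. Of 37 proteasome genes 16 were higher (median -0.02) and 1 passed at that level. Of 30 genes of autophagy and lysosomes 25 were higher over both genotypes (median 0.05). In mutants the median was 0.14, with 13 higher and 0 lower at an unadjusted p under 0.05, where 14.3% of all genes were higher. In controls it was -0.02, against -0.02 for all genes, with 0 higher and 3 lower, where 9.24% of all genes were lower. Gabarapl1, an autophagosome protein gene, had the smallest p (0.23, adjusted p = 0.189).

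The core clock genes had large 24 h components beside small 12 h ones. Of 23 tested, 19 passed for the 24 h component and 1, Npas2, for the difference between transitions and mid-phases. At an unadjusted p under 0.05, 4 were higher and 1 lower. Those higher included the output factor gene Dbp (0.59, adjusted p = 0.119), the repressor gene Ciart (0.40, adjusted p = 0.210) and the repressor gene Bhlhe40 (0.33, adjusted p = 0.166). In controls 11 of the 23 were higher (median -0.01), with 0 higher and 2 lower at an unadjusted p under 0.05. In mutants 18 were higher (median 0.18), with 7 higher and 1 lower at that level. Among all genes 9.24% were lower at that level in controls and 14.3% higher in mutants. With quantile scaling the medians were 0.02 in controls and 0.12 in mutants.

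Dbp was at 13.5 ± 1.94, 9.13 ± 2.11, 51.7 ± 11.8 and 62.8 ± 33.3 FPKM at ZT0, ZT6, ZT12 and ZT18 in controls and at 18.1 ± 7.54, 5.02 ± 1.14, 91.4 ± 25.5 and 69.7 ± 4.79 FPKM in mutants (SD, n = 4 each). These values follow 1 daily cycle, and the 12 h term describes its shape. Bhlhe40 had no 24 h component (adjusted p = 0.557), and 13 of 16 transition libraries lay above its mid-phase median of 34.4 FPKM.

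The core activator gene Arntl, which encodes BMAL1, had a difference of 0.13 (adjusted p = 0.660), Nr1d1 of -0.13, Nr1d2 of -0.08 and Nfil3 of -0.17. The repressor genes Per1 (0.22), Per2 (0.25), Per3 (0.22) and Cry2 (0.17) had positive differences and Cry1 (-0.14) a negative one, none past the threshold. Usp2, Bhlhe41, Csnk1d, Tef and Rora were between 0.02 and 0.15. Clock, Csnk1e and Hlf were at 0.00, and the sign of Clock, Csnk1e, Hlf and Tef changed in some settings.

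**Figure D3:**
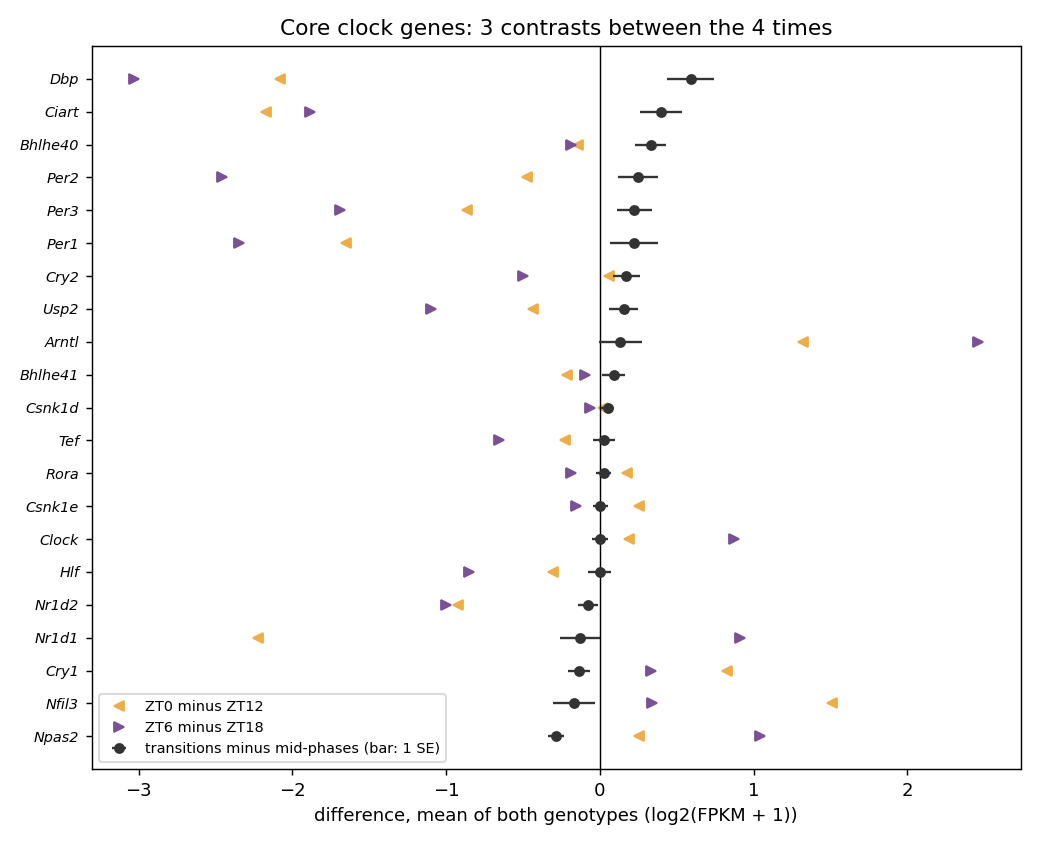
Differences on the log2(FPKM + 1) scale (horizontal axis, mean of both genotypes) for core clock genes: transitions minus mid-phases with 1 SE (circles), ZT0 minus ZT12 (left triangles) and ZT6 minus ZT18 (right triangles). The circles lie between -0.29 and 0.59, while the triangles of Dbp, Per1, Per2 and Arntl lie far from 0.

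In controls alone, 8 genes passed (0.0668%), 3 higher and 5 lower, and 1739 did so before adjustment (14.5%), with 633 higher (5.29%) and 1106 lower (9.24%). Besides Fam212a, Iigp1 and Ldoc1l they included Sgk1, a kinase gene that glucocorticoids switch on, which was at 41.2 to 84.6 FPKM at transitions and 62.5 to 159 FPKM at mid-phases (difference -0.83, adjusted p = 0.0384). In mutants Sgk1 was low at ZT6 (43.2 ± 14.3 FPKM) and high at ZT18 (128.5 ± 20.1 FPKM; SD, n = 4 each), and the difference was 0.01 (adjusted p = 0.977). The RAS-association gene Rassf9 (0.57) and N4bp3, a NEDD4-binding protein gene (0.34), rose in controls, while Dlst, which encodes a subunit of the 2-oxoglutarate dehydrogenase of the citric acid cycle (-0.30), and Smco1, a membrane protein gene (-0.37), fell (adjusted p = 0.0449 for each of the 4). With 1 library left out in turn, Fam212a passed in controls in all 32 fits, Iigp1 in 23, Sgk1 in 20, Ldoc1l in 15, Rassf9 in 13 and N4bp3 in 12. Rassf9 and N4bp3 did not pass in controls with quantile scaling, median centring or a pseudocount of 0.1. Rassf9 owed its difference to ZT0, where control libraries were at 3.63 to 5.91 FPKM.

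In mutants alone 0 genes passed by limma, with or without array weights (0%; smallest adjusted p = 0.0851 without), while the unadjusted p was under 0.05 for 2574 genes (21.5%), of which 1708 were higher (14.3%) and 866 lower (7.23%). The genes with the smallest p included Tmem223, a gene of mitochondrial cytochrome oxidase assembly, Gm14005 and Tmem238 among those with higher values, and Etohi1 and Saa3 among those with lower values (adjusted p = 0.0851 for each). Tmem223 was at 63.5, 54.1, 77.8 and 41.7 FPKM at ZT0 and 84.7, 77.1, 59.1 and 48.8 FPKM at ZT12 in mutants, against 34.8 to 50.3 FPKM at mid-phases. In both transition groups library 3 was the lowest, and the other 6 transition libraries all lay above the mid-phase range.

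That count depends on single libraries. Without library 3 of the mutant ZT0 group 1261 genes passed in mutants (949 higher and 312 lower), and without library 3 of the mutant ZT12 group 849 did (622 and 227). Of these, 728 were shared, 57.7% of the first set and 85.7% of the second, and all 728 had the same direction. Without both libraries 2159 genes passed. These omissions were chosen after the counts were seen, as those that raised the mutant count most. The counts therefore describe the dependence and are no evidence of an effect.

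Transcript length moved with the same libraries. For 11341 genes matched to annotated transcripts, the median deviation of the genes with the shortest transcripts (quartile 1, 109 to 2147 bases) minus that of the genes with the longest (quartile 4) was between 0.04 and 0.17 in the other 6 mutant transition libraries, and -0.02 and -0.07 in library 3 of ZT0 and of ZT12. In mutants the median difference between transitions and mid-phases went from 0.08 in quartile 1 to -0.02 in quartile 4, and in controls from -0.05 to 0.00. The part of transcript length in the differences was not tested.

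Differences in controls and in mutants had the same sign in 46.6% of all genes. Of 307 genes with an unadjusted p under 0.05 in each genotype, 94 (30.6%) had the same direction, 47 higher and 47 lower in both, and the rest had opposite directions. These 307 were 17.7% of the genes at that level in controls and 11.9% of those in mutants. The share with the same direction was 45.3% with libraries scaled by quantiles and 17.8% without library 3 of the mutant ZT0 and ZT12 groups. The difference between genotypes itself passed for 0 genes by limma (0%; smallest adjusted p = 0.0748). At an unadjusted p under 0.05 there were 2486 (20.8%), with the mutant difference above the control difference in 1880 (15.7%) and below in 606 (5.06%). It passed for 1101 genes without library 3 of the mutant ZT0 group and for 789 without that of ZT12.

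The genes with the smallest p for the difference between genotypes included Sdhaf4, an assembly factor of succinate dehydrogenase, the glutaredoxin gene Glrx and Rnf7, a ubiquitin ligase subunit gene (adjusted p = 0.0748 for each). Sdhaf4 was at 27.6 to 34.3 FPKM at control transitions and 31.0 to 42.4 FPKM at control mid-phases. In mutants it was at 30.4 to 44.5 FPKM at transitions and 25.7 to 34.5 FPKM at mid-phases, so that all 8 transition libraries lay below the mid-phase median in controls and above it in mutants. The log2 differences were -0.24 and 0.28.

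The mitochondrial lists had medians of opposite sign in the genotypes, as had all genes (-0.02 in controls and 0.03 in mutants). Among all genes 42.4% were higher at transitions in controls and 57.3% in mutants. Of 67 nuclear genes of oxidative phosphorylation, 8 were higher at transitions in controls (median -0.10) and 49 in mutants (median 0.15). At an unadjusted p under 0.05, 9 were lower and 0 higher in controls, and 31 were higher and 0 lower in mutants. The shares of all genes at that level were 9.24% lower in controls and 14.3% higher in mutants. Cox6c, a subunit of cytochrome oxidase, was at 741 to 1147 FPKM against 770 to 974 FPKM in controls and at 744 to 1132 FPKM against 610 to 883 FPKM in mutants (difference 0.03 and 0.32). Of 72 mitochondrial ribosome genes, 2 were higher in controls (median -0.13, 24 lower at an unadjusted p under 0.05) and 42 in mutants (median 0.05, 19 higher and 3 lower). The count of 42 in mutants was near the share of all genes that were higher there (57.3%, median 0.03). Mrpl49, of the large subunit, did not overlap in controls, with 15.3 to 17.9 FPKM at transitions and 18.1 to 21.9 FPKM at mid-phases (difference -0.26, adjusted p = 0.0732), and was at 0.02 in mutants.

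These contrasts were not stable to scaling. With libraries scaled by quantiles the median of the oxidative phosphorylation genes was -0.01 in controls, with 28 of 67 higher, and 0.06 in mutants. That of the mitochondrial ribosome genes was -0.08 in controls and -0.01 in mutants, with 33 of 72 higher. The transcript lengths of these genes were not measured as a list, and the part of length in these contrasts was not tested. In the mutant transition libraries the oxidative phosphorylation score ran from 0.25 (ZT0, library 0) to -0.18 (ZT12, library 3), a spread wider than the difference of the medians.

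**Figure D4:**
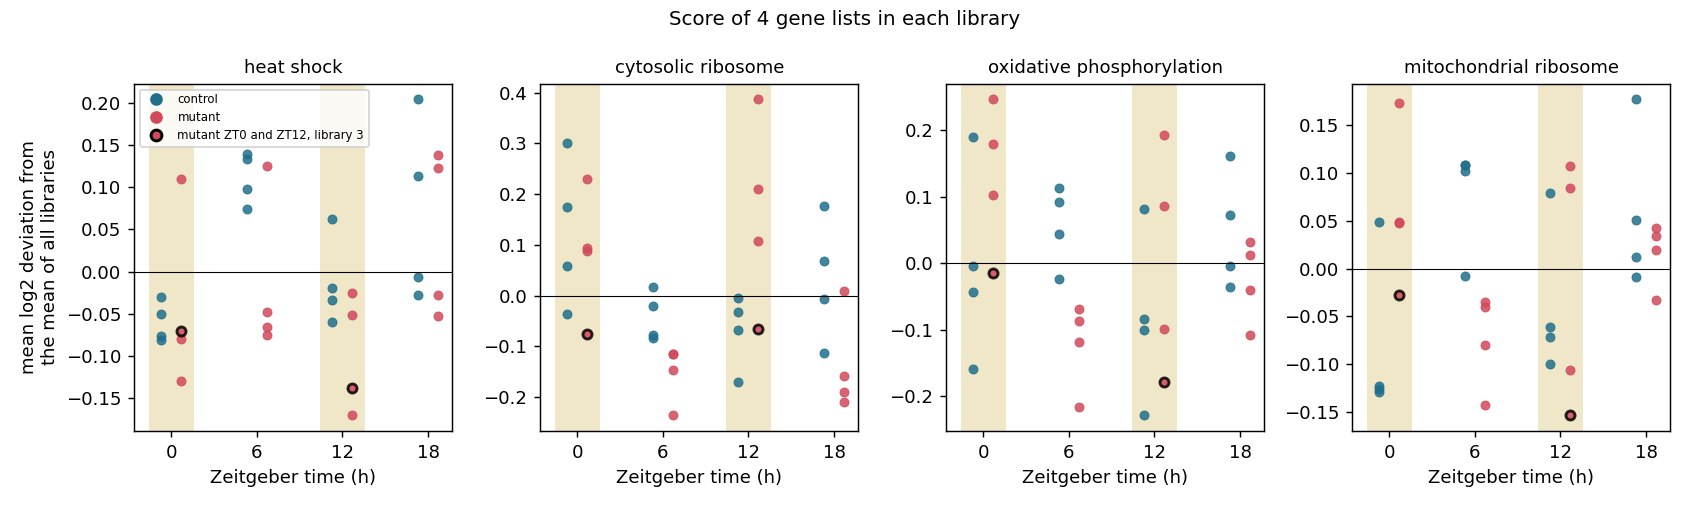
Mean log2 deviation of each library from the mean of all libraries (vertical axes) against Zeitgeber time in hours for 4 gene lists; each point is 1 library, bands mark transitions, and library 3 of the mutant ZT0 and ZT12 groups is ringed. The ringed libraries lie at or below 0 in the cytosolic ribosome and oxidative phosphorylation panels, where most other mutant transition libraries lie above it.

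On the gene lists for fuel use and hormone response only Sgk1 passed, in controls. The share at an unadjusted p under 0.05 over both genotypes was 14.1% for all genes. It was 15.4% for glucocorticoid response, 18.2% for insulin and mTOR signalling, 12.9% for glucose and glycogen, 7.41% for fatty acid use and 23.5% for splicing factors. For nuclear, snoRNA host and histone RNAs, a list drawn up for RNA quality, it was 31.6%. A difference in RNA quality between transitions and mid-phases was not tested. Of 26 glucocorticoid-response genes, 13 were higher and 13 lower, with 0 higher and 4 lower at an unadjusted p under 0.05 and 17 with a 24 h component. Ddit4, an inhibitor of mTORC1 in this list and in that of insulin and mTOR signalling, had a difference of -0.91 (SE 0.302, adjusted p = 0.197) and Errfi1, a feedback inhibitor of EGF signalling, -0.29 (adjusted p = 0.163). Of 22 genes of insulin and mTOR signalling 1 was higher and 3 lower at that level: Ddit4, the growth factor gene Igf1 (-0.42, adjusted p = 0.139) and the receptor substrate gene Irs1 (-0.30, adjusted p = 0.218) were the 3. Of 31 glucose and glycogen genes, 1 was higher and 3 lower at an unadjusted p under 0.05. For 27 genes of fatty acid use the counts were 0 and 2, for 25 genes of lipid and sterol synthesis 0 and 1, for 20 genes of the oxidative stress response 3 and 0, and for 19 atrophy genes 1 and 1. Of 34 splicing factor genes 6 were higher and 2 lower, and of 21 immediate early genes 0 and 1. Of the 19 nuclear, snoRNA host and histone RNAs 5 were higher, among them Snhg5 (0.30) and Snhg8 (0.34), and 1, Hist1h1e (-0.39), was lower.

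None of the markers of the cell types in the tissue passed singly. At an unadjusted p under 0.05 the share over both genotypes was 35% for endothelial, 21.1% for slow fibre and 15.8% for fast fibre genes. It was 0% to 12.5% for the other cell types, against 14.1% for all genes. In bulk RNA fewer cells of a type and less RNA per cell cannot be told apart. Endothelial genes had higher means at transitions: 16 of 20 were higher (median 0.09), 7 of them and 0 lower at an unadjusted p under 0.05, and 9 had a 24 h component. The tight junction gene Cldn5 was at 7.95 to 29.6 FPKM at transitions (median 18.9) and 7.54 to 18.5 FPKM at mid-phases (median 13.1; difference 0.37, adjusted p = 0.153), highest at ZT0. The vascular gene Egfl7 (0.24, adjusted p = 0.132) had 14 of 16 transition libraries above the mid-phase median. Apart from endothelial genes, the pericyte potassium channel gene Kcnj8 (0.30, adjusted p = 0.122) also had 14 of 16. The 13 smooth muscle genes as a list had a median of 0.04, with 1 higher at an unadjusted p under 0.05. Without libraries 2 and 3 of the mutant ZT0 group 13 of 20 endothelial genes were higher, and 5 were higher and 1 lower at an unadjusted p under 0.05.

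Lymphocyte genes had list medians of opposite sign in the genotypes. All 23 were higher at transitions in controls (median 0.80, 9 at an unadjusted p under 0.05) and 5 in mutants (median -0.21, 0 at that level). Without libraries 2 and 3 of the mutant ZT0 group 14 were higher in mutants (median 0.08), and without library 3 alone 9 were (median -0.10). Their summed level varied widely within each set. It was 6.53 to 187 FPKM at control transitions (median 50.9), 5.08 to 53.6 at control mid-phases (median 8.55), 7.88 to 193 at mutant transitions (median 49.9) and 4.77 to 156 at mutant mid-phases (median 72.1). Cd247, a chain of the T cell receptor, had the smallest p over both genotypes (0.40, adjusted p = 0.272). With the lymphocyte and adipocyte scores as covariates the called genes numbered 3 higher and 8 lower over both genotypes.

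Of 20 adipocyte genes 18 were higher in controls (median 0.39) and 9 in mutants (median -0.03; 12, median 0.08, without libraries 2 and 3 of the mutant ZT0 group). Over both genotypes 18 were higher (median 0.17, 1 at an unadjusted p under 0.05), and of 9 Schwann cell and nerve genes all were (median 0.22, 1). Slow fibre genes (15 of 19 lower, median -0.11, 4 at an unadjusted p under 0.05) and fast fibre genes (15 of 19 lower, median -0.09, 3) both had lower means. The slow myosin gene Myh7 (-0.50), the slow troponin gene Tnnt1 (-0.50) and the fast myosin genes Myh2 (-0.27) and Myh1 (-0.26) had the smallest p, with adjusted p from 0.195 to 0.226. Of 21 genes of excitation and calcium handling 19 were lower in controls (median -0.15, 0 higher and 7 lower at an unadjusted p under 0.05) and 11 in mutants (median 0.00, 4 higher and 1 lower). Among all genes 9.24% were lower at that level in controls and 14.3% higher in mutants. Smooth muscle (11 of 13 higher, median 0.04), satellite cell (4 of 8 higher, median -0.02), fibroblast and matrix (11 of 27 higher, median -0.07) and macrophage and neutrophil genes (10 of 19 higher, median 0.00) had at most 1 member in each direction at an unadjusted p under 0.05, and of 3 erythroid genes all were lower (median -0.11, 0 at that level). The part of cell composition in the genes that passed was not tested.

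**Figure D5:**
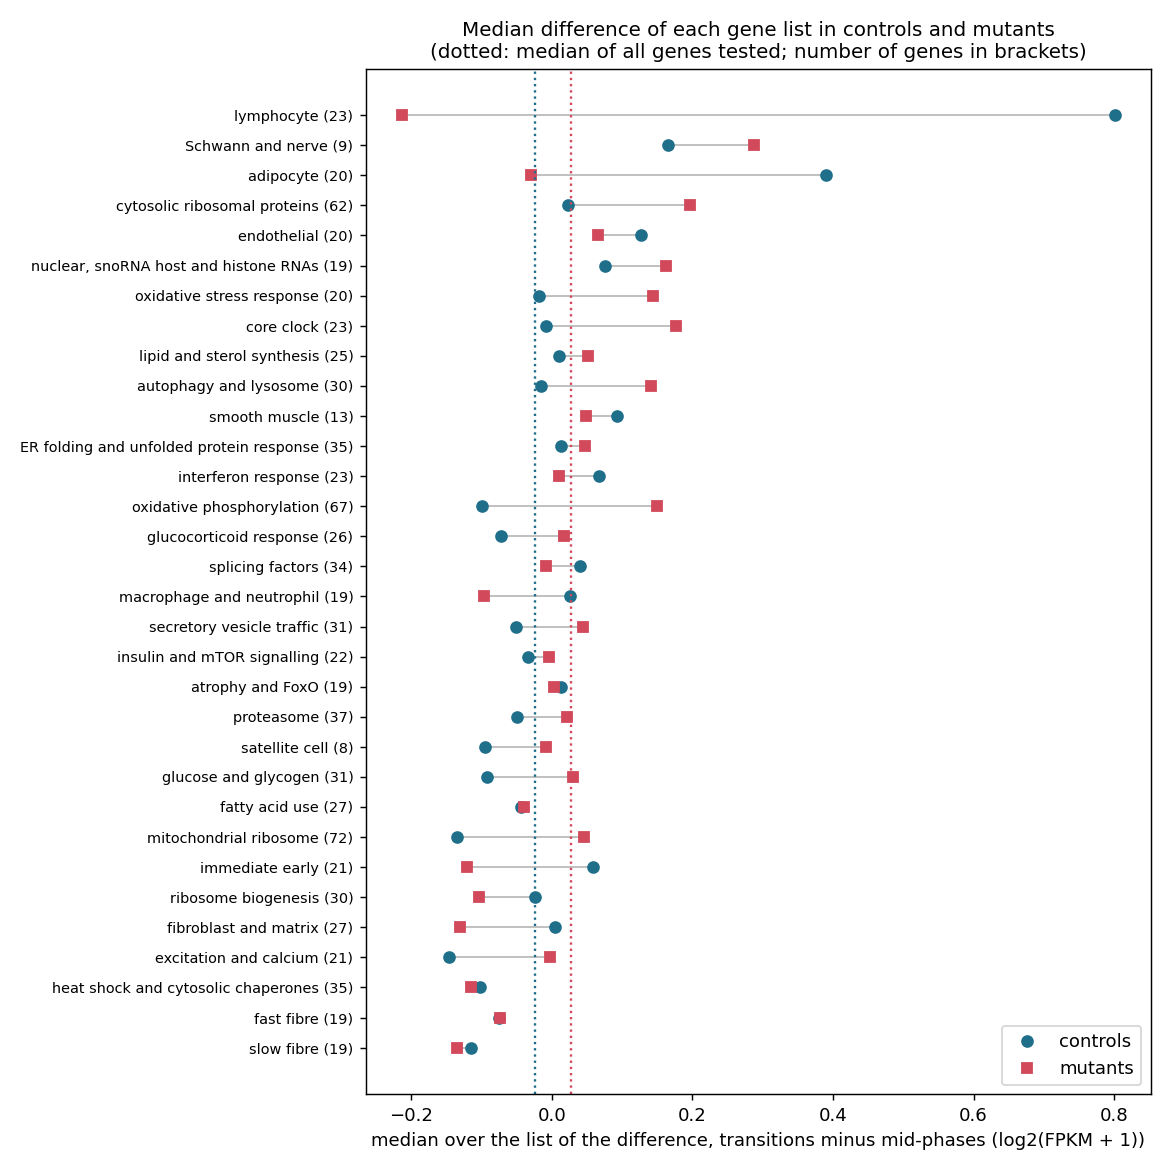
Median over each gene list of the difference between transitions and mid-phases (horizontal axis, log2(FPKM + 1)) in controls (circles) and mutants (squares), for 32 lists of at least 5 tested genes; dotted lines are the medians of all genes, -0.02 in controls and 0.03 in mutants. The heat shock and fibre lists lie left of the lines in both genotypes, and lymphocyte, oxidative phosphorylation and mitochondrial ribosome lists lie on opposite sides of 0.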

How the data were processed

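RNA from gastrocnemius of 32 mice was sequenced as stranded mRNA libraries in single-end runs, per the labels' protocols. The authors deposited 1 table of FPKM for 16634 genes, with the mm10 build per the submitters' processing notes; the aligner and quantifier are not given in the sources used here. Columns were matched to groups by genotype (WT as Control, TG as mutant) and time in their names; their library numbers do not identify a mouse. Genes with at least 1 FPKM in at least 4 libraries were kept (11975). A 0 was missing where the gene's other values had a median of at least 5 FPKM and a lowest value of at least 1 FPKM (242 values, 20 genes). A model with 8 group means was fitted to log2(FPKM + 1) with limma 3.58.1 in R 4.3.3, with a trended prior variance, 24 residual degrees of freedom and Benjamini-Hochberg adjustment over all genes. The contrast was the mean of the ZT0 and ZT12 group means minus that of ZT6 and ZT18, in each genotype, their mean and their difference. It was tested on simulated data. P-values measure the spread between the 4 mice of a group. The comparison and gene lists were chosen with earlier results of these data known. Genes with 1 symbol were named by size of difference and smallest p per comparison (up to 10 and 5 in each direction for both genotypes, 3 for each genotype, 5 for the difference), up to 3 per list by smallest p, and the clock genes (a few results are not reported here). Other list members and single genes were named after their values were seen. Alternatives were other pseudocounts, filters, scalings, treatments of 0, weights, covariates and priors, and each library left out.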

Additional observations from a re-analysis of the deposited data

Results flagged for a closer look

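Among 248 groups of 4 mice (31 genes by 8 groups), 14 (5.65%) had 1 library set apart from the other 3 by Dixon's 95% criterion; chance alone gives about 1 group in 20. For genes that passed over both genotypes, Saa3 was at 1.73 FPKM in 1 control ZT12 library (others 0.446 to 0.662 FPKM) and at 0.786 FPKM in 1 mutant ZT0 library, where the other 3 are listed at 0. Iigp1 was at 38.0 FPKM (37.96) in 1 mutant ZT12 library against 12.2 to 15.5 FPKM in the others. Fam212a was at 3.76 FPKM in 1 mutant ZT0 library against 2.31 to 2.35 FPKM, and Ldoc1l at 2.23 FPKM in 1 control ZT12 library against 2.62 to 2.64 FPKM.

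Among genes called in controls alone, N4bp3 was at 2.27 FPKM in 1 control ZT6 library against 1.57 to 1.66 FPKM. Rassf9 was at 4.88 FPKM in 1 mutant ZT0 library against 3.22 to 3.45 FPKM and at 3.71 FPKM in 1 mutant ZT6 library against 2.55 to 2.72 FPKM. Of the other genes, Tmem223 was at 64.1 FPKM in 1 control ZT18 library against 48.3 to 50.1 FPKM. Library 0 of the mutant ZT18 group was set apart for Ahsa1, at 140 FPKM (139.98) against 94.8 to 99.3 FPKM, and for Egfl7, at 34.5 FPKM against 30.2 to 30.8 FPKM. Ciart was at 9.94 FPKM in 1 mutant ZT12 library against 6.52 to 6.98 FPKM. Kcnj8 was at 8.67 FPKM in 1 control ZT6 library against 6.37 to 6.59 FPKM and at 9.29 FPKM in 1 control ZT12 library against 6.48 to 6.80 FPKM.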

How the results depend on the processing

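Over both genotypes 2 genes were called higher and 6 lower. The number higher was 1 with a pseudocount of 0.1, 0 with a minimum mean of 5 FPKM, 1 with quantile scaling, 1 with every exact 0 missing, 1 without libraries 2 and 3 of the mutant ZT0 group, and 27 without library 3 of the mutant ZT0 and ZT12 groups. The number lower was 1 with a minimum mean of 5 FPKM, 3 without libraries 2 and 3 of the mutant ZT0 group, and 27 without library 3 of the mutant ZT0 and ZT12 groups. Controls alone had 8 calls, and 3 with a pseudocount of 0.1, 2 with a minimum mean of 5 FPKM, 4 with quantile scaling, 3 with libraries centred on their median, 395 with array weights, 91 with only control groups in the fit, 34 without libraries 2 and 3 of the mutant ZT0 group, and 13 without library 3 of the mutant ZT0 and ZT12 groups. Mutants alone had 0, and 2159 in the last setting. The difference between genotypes had 0, and 1 with array weights, 411 without libraries 2 and 3 of the mutant ZT0 group, and 1832 in the last setting. The omission of those pairs of libraries and the removal of every exact 0 were chosen after seeing the data. Leaving out each library in turn gave 1 to 10 genes higher, 2 to 11 lower, 1 to 21 in controls, 0 to 1261 in mutants and 0 to 1101 for the difference between genotypes; the cause was not tested.

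Of the named genes, 4 clock genes with differences near 0 changed sign. Hlf was at 0.0098 with a pseudocount of 0.1, 0.0012 with covariates, 0.0019 and 0.0256 without the first and second pair of mutant libraries, and -0.03 to 0.04 with each library left out (-0.0328 to 0.0444). Csnk1e was at -0.0069 with libraries centred on their median and at -0.0208 to 0.0342 with each library left out. Clock was at -0.0060 with quantile scaling, -0.0079 with median centring, -0.0071 and -0.0157 without the first and second pair, and -0.0171 to 0.0258 with each library left out. Tef was at -0.0084 to 0.0624 with each library left out. Of 4832 values with 1 library left out, 4579 kept direction and side of the threshold. No paired analysis was possible because the library numbers do not identify mice and the labels share none between groups. FPKM carries no depth, so precision at low values is unknown.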
